A study of Mus musculus with 8 samples.

Results

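Keratins are the proteins of the intermediate filaments of epithelial cells, and 53 protein-coding keratin genes were followed in RNA-Seq data from mouse mammary tumors treated topically with calcipotriol or EtOH. The genes were taken by symbol, as every protein-coding gene named Krt followed by a number and at most 1 letter, and they are 53 of the 55414 gene identifiers in the table. Of these, 27 lie on chromosome 11 and 26 on chromosome 15. The genes on chromosome 11 and Krt18 were taken as type I (28 genes) and the others as type II (25 genes). Of the 53, 11 had enough counts for a test, 42 did not, and 23 of those 42 were at 0 in all 8 tumors.

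A keratin filament is built from pairs, each of a type I and a type II chain, and the pair in use marks the kind of epithelium. Simple epithelia, such as the luminal layer of the mammary gland, use Krt8 with Krt18 and add Krt7, Krt19 or Krt20. The basal layer of stratified epithelia and the myoepithelial cells of the mammary gland use Krt5 with Krt14, suprabasal layers switch to pairs such as Krt1 with Krt10 or Krt4 with Krt13, and the stress keratins Krt6, Krt16 and Krt17 appear in wounded or rapidly growing skin. Calcipotriol is a vitamin D analog that is used on the skin.

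Tumors were grown in the mammary fat pad of female WT mice of the C57BL/6 background from the PyMt line, a single cell line from a mammary tumor of a mouse in which the mammary tumor virus promoter drives the polyoma middle T oncogene. Calcipotriol was dissolved in ethanol and applied over the tumor every other day, ethanol alone (EtOH) was the control, and tumors were taken the day after the last application. There were 4 EtOH-treated tumors (replicates 1 to 4) and 4 calcipotriol-treated tumors (replicates 1, 5, 6 and 7), and each gave 1 library of 19685419 to 25084713 counts. The comparison asks which keratins differed between tumors under calcipotriol and tumors under the solvent alone. Levels are given as estimated read counts or as CPM, the counts scaled to a normalized library of fixed size, and levels of different genes were set side by side only as CPM per kb of exonic length.

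Differences were tested with edgeR's quasi-likelihood test over all 14458 genes with enough counts, and a gene was called where the Benjamini-Hochberg adjusted p was under 0.05 and the log2 fold change of calcipotriol over EtOH was at least 1 in size. Libraries differed within both groups. The squared difference of 2 libraries per gene, in units of counting error, was 41.7 for EtOH replicates 1 and 2, 20.2 for EtOH replicates 3 and 4 and 82 to 107 across these pairs, and it was 43.3 for calcipotriol replicates 6 and 7 and 78 to 133 for the other pairs of that group. Leaving out calcipotriol replicate 1 raised the number of genes called higher from 155 to 241 and of genes called lower from 137 to 401. The labels give the cell type as epithelial, and the general epithelial adhesion gene Cdh1 had 103 to 568 counts in every tumor, whereas Epcam was at 0 in EtOH replicates 1 and 2. These were bulk tumors with macrophage, fibroblast, endothelial and red cell transcripts in every library, so fewer cells of a type and less RNA per cell cannot be told apart in any value below.

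The simple pair took most keratin counts in every tumor. The 2 keratins called higher with calcipotriol were Krt14 of the basal class and Krt76 of the suprabasal class. Krt8 and Krt18 together held 98.3% ± 0.737 (SD, n = 4) of all keratin CPM in EtOH-treated tumors and 88% ± 5 in calcipotriol-treated tumors. Among the 11 tested keratins, Krt14 and Krt76 rose, and 0 were called lower, against 1.07% of all tested genes called higher, 0.948% called lower and 2.02% called in either direction. DESeq2 also called 2 of the 11 (4.47% of its tested genes) and limma-voom called 1 (1.9%). Krt18 was lower with an adjusted p under 0.05 but just short of the fold threshold, and Krt7, Krt8, Krt17, Krt20, Krt5, Krt10, Krt19 and Krt80 did not pass. A gene can enter the test through counts in 1 group alone, so the counts over these 11 describe them and say nothing of the family as a whole.

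**Figure D1:**
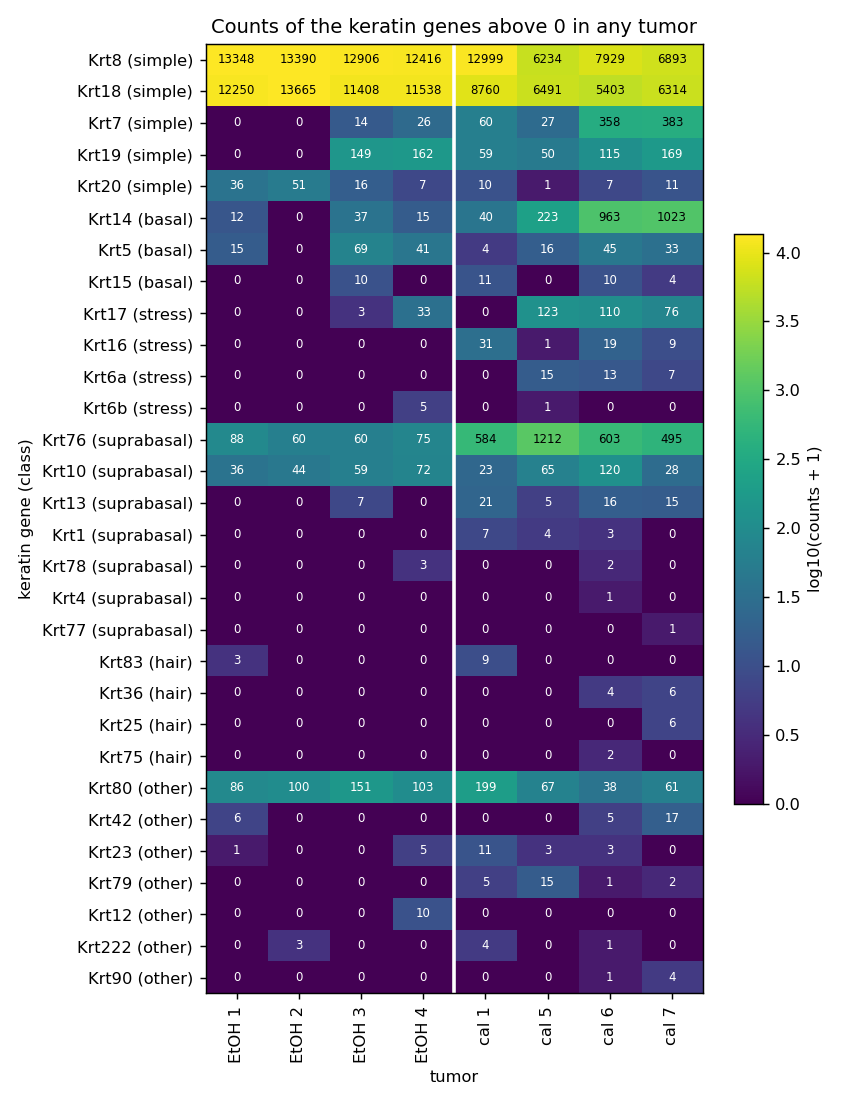
Estimated read counts, rounded, of the 30 keratin genes above 0 in any tumor, with a row for each gene (its class in parentheses) and a column for each tumor, EtOH left of the white line and calcipotriol (cal) right of it; color shows log10(counts + 1). Krt8 and Krt18 have 5403 counts or more in every tumor, and most other genes are at or near 0 in the EtOH columns.

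Stretches of 300 bases around the RefSeq start sites (250 before and 50 after, GRCm38.p6) are shown for Krt8 and Krt18, the abundant simple pair, and for Krt14 and Krt76, the 2 genes that rose. They lie at chr15:102004293-102004592 (Krt8, minus strand), chr15:102027966-102028265 (Krt18, plus strand), chr11:100205981-100206280 (Krt14, minus strand) and chr15:101892871-101893170 (Krt76, minus strand), and each is written 5′ to 3′ on the strand of its gene. Capitals mark matches on either strand to TATAAA (the core of a TATA box), TGANTCA (AP-1), GCCNNNGGC (AP-2), GGGCGG (GC box) or the DR3 element of the vitamin D receptor, and in Krt8 the capitals are 2 overlapping TATA matches, one on each strand.
Krt8: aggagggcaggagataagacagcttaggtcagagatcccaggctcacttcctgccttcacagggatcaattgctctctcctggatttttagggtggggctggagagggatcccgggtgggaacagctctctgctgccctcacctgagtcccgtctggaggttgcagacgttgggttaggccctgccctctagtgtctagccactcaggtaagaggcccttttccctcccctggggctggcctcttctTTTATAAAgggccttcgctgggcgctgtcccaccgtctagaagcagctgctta
Krt18: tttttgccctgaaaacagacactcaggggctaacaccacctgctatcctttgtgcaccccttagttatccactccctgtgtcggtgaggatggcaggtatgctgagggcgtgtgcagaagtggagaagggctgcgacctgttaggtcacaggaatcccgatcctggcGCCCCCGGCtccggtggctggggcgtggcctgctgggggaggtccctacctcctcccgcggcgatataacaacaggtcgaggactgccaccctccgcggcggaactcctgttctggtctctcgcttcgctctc
Krt14: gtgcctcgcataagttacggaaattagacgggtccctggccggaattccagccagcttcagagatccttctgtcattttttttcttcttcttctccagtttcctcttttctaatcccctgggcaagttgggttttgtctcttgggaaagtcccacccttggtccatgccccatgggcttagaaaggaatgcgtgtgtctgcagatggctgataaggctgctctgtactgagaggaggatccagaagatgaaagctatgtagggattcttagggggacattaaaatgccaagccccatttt
Krt76: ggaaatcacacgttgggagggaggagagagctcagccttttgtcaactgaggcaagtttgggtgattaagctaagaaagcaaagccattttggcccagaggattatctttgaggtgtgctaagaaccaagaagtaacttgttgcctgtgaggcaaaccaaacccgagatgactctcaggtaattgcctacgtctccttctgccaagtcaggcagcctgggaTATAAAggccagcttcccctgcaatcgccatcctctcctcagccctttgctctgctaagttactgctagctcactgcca
Krt18 had 1 AP-2 match and no TATA box of these letters, Krt76 had 1 TATA box, and Krt14 had no match to any of the 5 motifs. The Krt14 window starts from a RefSeq site that lies inside the gene as annotated in GENCODE, so other start sites were not covered. Promoters were listed for 36 of the 53 keratins, 8 of them tested. TATAAA was found in 52.8% of these 36 and in 13.6% of all 32851 listed promoters, the GC box in 5.56% and 35.7%, AP-2 in 19.4% and 16.6%, and AP-1 in 2.78% and 7.81%. DR3 was found in 0 keratin promoters and in 0.0396% of all. A keratin gene was counted where any of its listed promoters matched, whereas the share of all was taken per promoter. The motifs are matches of letters in short windows and were not tested.

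The simple keratins took the most counts of any class in every tumor, at 1156 ± 153 CPM summed over 5 genes with EtOH and 676 ± 135 CPM with calcipotriol. Krt8 (type II, chr15:101996698-102004482, minus strand, GRCm38) had 649, 652, 523 and 548 CPM in EtOH replicates 1 to 4 and 516, 285, 381 and 292 CPM in calcipotriol replicates 1, 5, 6 and 7. Every calcipotriol-treated tumor lay below every EtOH-treated tumor, although calcipotriol replicate 1 came within a few CPM of the lowest of them. The log2 fold change of Krt8 was -0.69 ± 0.20 (SE) with an adjusted p of 0.0966 in edgeR's quasi-likelihood test, 0.0140 by DESeq2 and 0.0713 by limma-voom. Without calcipotriol replicate 1 the log2 fold change was -0.89 and the adjusted p was 0.0115. Of the 50-base stretches in Krt8 transcripts, 29.7% also occur in other genes, mostly in the pseudogene Krt8-ps, and Krt8 was the 1 keratin with counts that were not whole, so its counts depend on how shared reads were divided.

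Krt18, the type I partner of Krt8 (chr15:102028180-102032027, plus strand), lies next to it in the type II cluster, away from the other type I genes. Its level was 596, 665, 462 and 509 CPM with EtOH and 348, 296, 260 and 268 CPM with calcipotriol. The lowest EtOH-treated tumor was well above the highest calcipotriol-treated tumor. The mean went from 558 ± 90.4 to 293 ± 40 CPM, with a log2 fold change of -0.93 ± 0.16 and an adjusted p of 0.0162 by edgeR, 1.24e-06 by DESeq2 and 0.0137 by limma-voom. By adjusted p alone, 1.37% of all tested genes were lower. Krt18 passed both thresholds without calcipotriol replicate 1 (log2 fold change -1.02, adjusted p 0.00585) and without EtOH replicate 3 (-1.01, adjusted p 0.0250), and its adjusted p was 0.0606 without calcipotriol replicate 6 and 0.0560 without replicate 7. Only 0.72% of its 50-base stretches occur in other genes.

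The 2 partners kept similar levels per length. The ratio of Krt18 to Krt8, both as CPM per kb, was 1.25, 1.39, 1.20 and 1.27 in the EtOH-treated tumors and 0.918, 1.42, 0.928 and 1.25 in the calcipotriol-treated tumors. The ranges overlapped, and the order of the 2 genes turned over in calcipotriol replicates 1 and 6.

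Krt7, a type II keratin of ducts and glands (chr15:101411043-101430313, plus strand), had its higher values in the calcipotriol group. It had 0, 0, 14 and 26 counts under EtOH and 60, 27, 358 and 383 under calcipotriol. The groups did not overlap, but the lowest calcipotriol-treated tumor (1.23 CPM) was almost level with the highest EtOH-treated tumor (1.15 CPM), and the group mean of 9.27 ± 8.63 CPM rested on replicates 6 and 7. The log2 fold change was 4.39 ± 1.20 with an adjusted p of 0.0825 by edgeR, 0.0649 by DESeq2 and 0.343 by limma-voom, so Krt7 was not called. It passed both thresholds without calcipotriol replicate 1 (4.71, adjusted p 0.0413) and with no filter on low counts (adjusted p 0.0186). Leaving out a tumor gave log2 fold changes of 3.92 to 5.48, the highest without EtOH replicate 4.

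Krt19, a type I simple keratin of ducts that lacks most of the tail found in other keratins (chr11:100140810-100148665, minus strand), had 0, 0, 149 and 162 counts under EtOH and 59, 50, 115 and 169 under calcipotriol. The spread lay within the groups, with a log2 fold change of 0.39 ± 1.22 and an adjusted p of 0.903. EtOH replicates 1 and 2 were at 0 for Krt7 and Krt19 alike, and also for Epcam and the tight junction gene Cldn4, while their Krt8 and Krt18 levels were the highest of all. Krt20, a type I keratin known from gut and bladder epithelium (chr11:99428403-99438150, minus strand), had 36, 51, 16 and 7 counts under EtOH and 10, 1, 7 and 11 under calcipotriol. The groups overlapped, and the log2 fold change of -2.03 ± 0.87 had an adjusted p of 0.250.

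**Figure D2:**
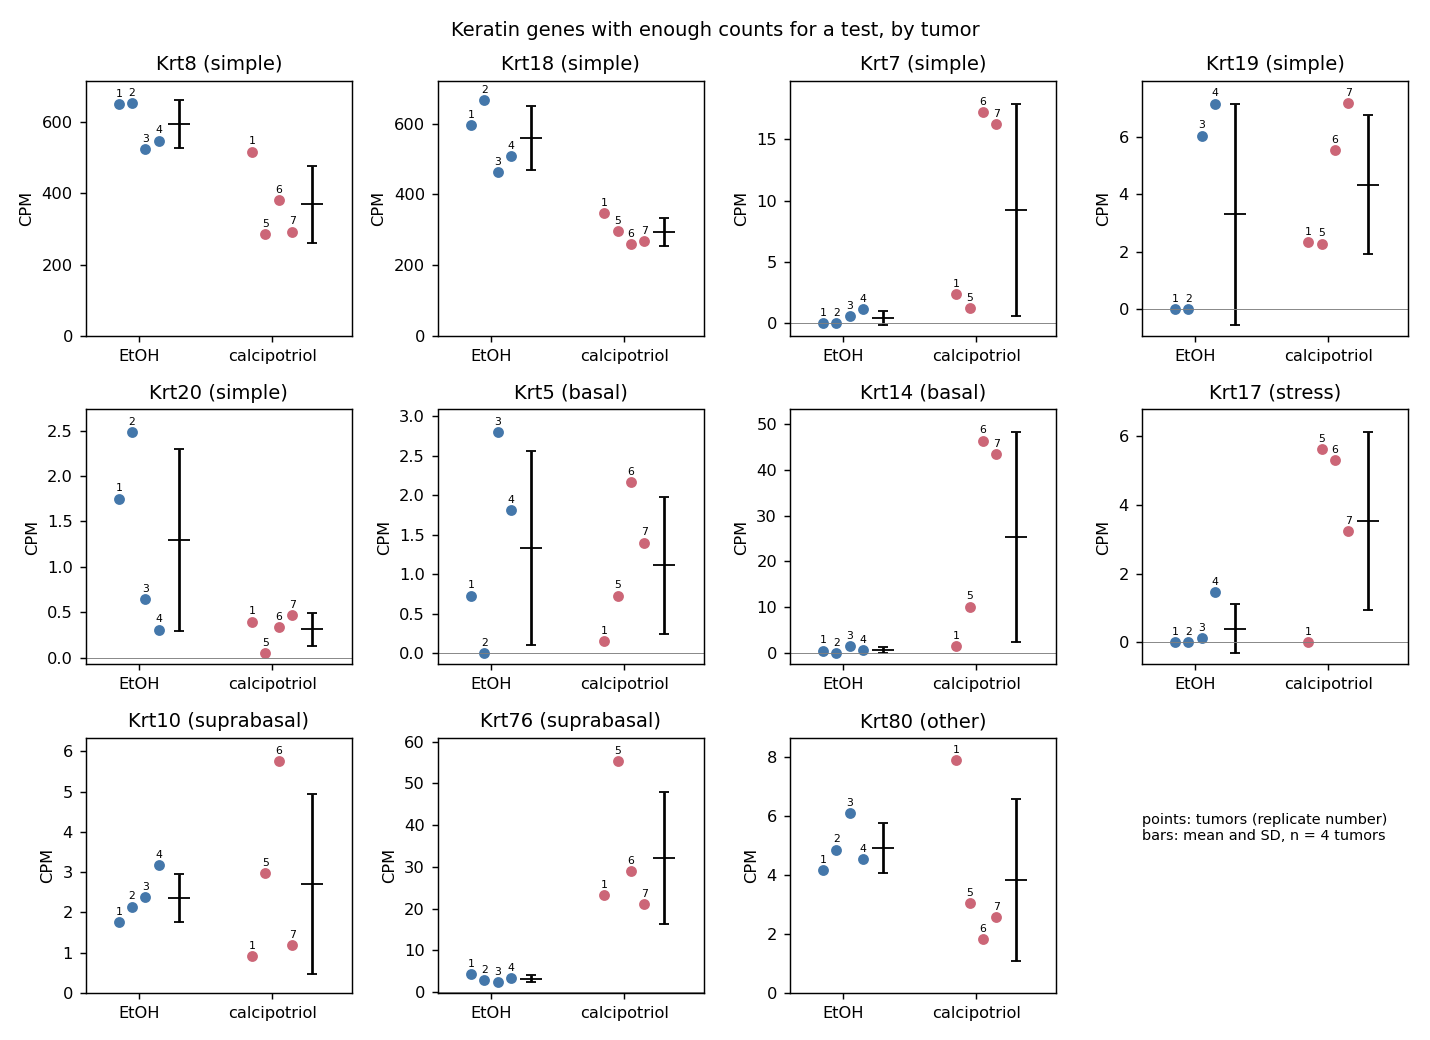
CPM of the 11 tested keratins, a panel for each gene with its own linear axis; points are tumors marked with their replicate number and bars give the mean and SD of 4 tumors a group. The calcipotriol points of Krt76 (21 to 55.4 CPM) all lie above the EtOH points (2.43 to 4.28 CPM), whereas Krt7 and Krt14 are high mainly in calcipotriol replicates 6 and 7.

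Of the 3 basal keratins, Krt14 rose, Krt5 did not pass the test and Krt15 was too low for one. Krt14 (type I, chr11:100203162-100207548, minus strand) had 12, 0, 37 and 15 counts under EtOH and 40, 223, 963 and 1023 under calcipotriol, or 0.584, 0, 1.5 and 0.662 CPM against 1.59, 10.2, 46.3 and 43.4 CPM. The groups did not overlap, but calcipotriol replicate 1 was barely above EtOH replicate 3, and replicates 6 and 7 were far above both. Its mean went from 0.686 ± 0.617 to 25.4 ± 22.8 CPM, a ratio of 37, and the log2 fold change of 5.17 ± 1.07 had an adjusted p of 0.0336 by edgeR and 0.00196 by DESeq2. The call was lost with limma-voom (adjusted p 0.446) and in 7 of the 8 fits that left out a tumor (adjusted p 0.0583 or more), and it held without calcipotriol replicate 1 (log2 fold change 5.55, adjusted p 0.00356). The log2 fold change over these 8 fits was 4.71 to 5.90, the highest without EtOH replicate 3. Krt14 shares 13.9% of its 50-base stretches with other genes, 11% with Krt16, which had at most 31 counts.

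Krt5, the type II partner (chr15:101707070-101712898, minus strand), had 15, 0, 69 and 41 counts under EtOH and 4, 16, 45 and 33 under calcipotriol. The groups overlapped, and the log2 fold change was -0.27 ± 1.09 with an adjusted p of 0.927, a direction that turned without EtOH replicate 3, without calcipotriol replicate 1 and with limma-voom. Per kb of exonic length, the ratio of Krt14 to Krt5 was 0.9998, 0.670 and 0.457 in EtOH replicates 1, 3 and 4 and 12.5, 17.4, 26.7 and 38.7 in calcipotriol replicates 1, 5, 6 and 7. The type I chain was thus level with or below the type II chain in 3 EtOH-treated tumors, and both genes were at 0 in EtOH replicate 2. In all 4 calcipotriol-treated tumors the type I chain was above the type II chain. For calcipotriol replicate 1 this rested on 40 counts of Krt14 and 4 of Krt5. Krt14 in that tumor (0.904 CPM per kb) was near its level in EtOH replicate 3 (0.852). The difference in ratio between the groups was not tested. Krt15, a further type I keratin of basal cells, was too low for a test, with 10 counts in EtOH replicate 3 and 0 to 11 counts with calcipotriol.

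**Figure D3:**
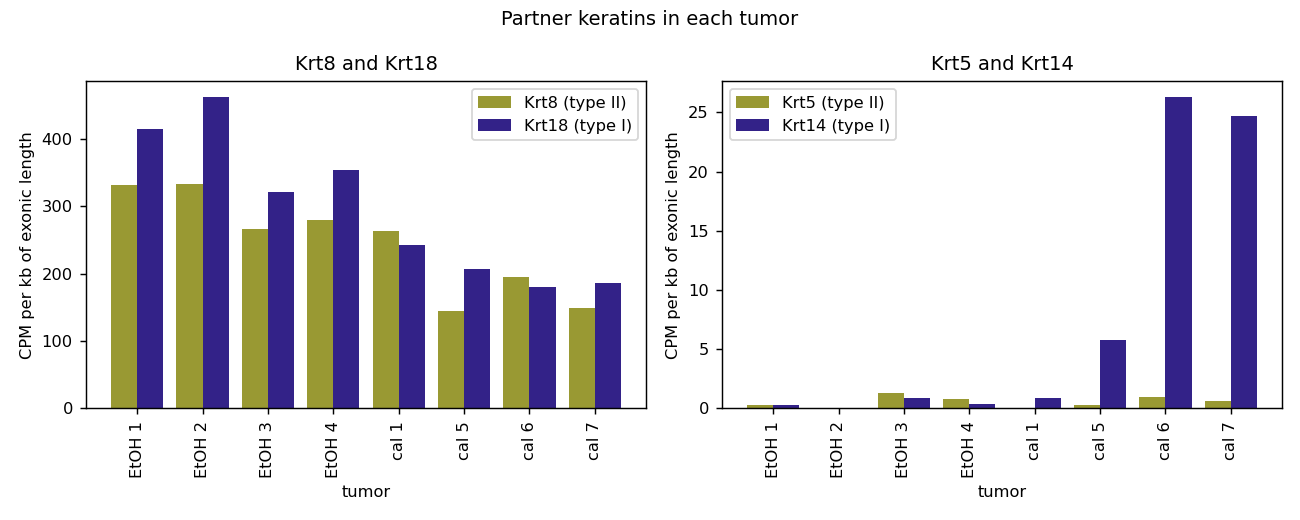
CPM per kb of exonic length of partner keratins in each tumor, type II in olive and type I in blue, for Krt8 with Krt18 (left) and Krt5 with Krt14 (right), each on a linear axis from 0. Krt18 stays within 0.918 to 1.42 times Krt8 in all tumors, while Krt14 is 12.5 to 38.7 times Krt5 in the calcipotriol-treated tumors.

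The stress keratins were near 0 with EtOH and low with calcipotriol, at 0.449 ± 0.82 and 4.59 ± 2.58 CPM summed over 4 genes, and 0 of them were called by edgeR, DESeq2 or limma-voom. Krt17, a type I keratin of skin appendages that is also seen in wounds (chr11:100256217-100261029, minus strand), was the 1 member tested and had 0, 0, 3 and 33 counts under EtOH and 0, 123, 110 and 76 under calcipotriol. Calcipotriol replicate 1 was at 0 like EtOH replicates 1 and 2, and the log2 fold change of 3.13 ± 1.502 had an adjusted p of 0.301 (unadjusted p 0.0622). Without EtOH replicate 4 the log2 fold change was 6.15 (adjusted p 0.103), and the other omissions gave 2.73 to 3.55. Krt16, a type I partner of the Krt6 chains, had 0 counts in all EtOH-treated tumors and 31, 1, 19 and 9 counts with calcipotriol. Its calcipotriol mean was at least 4.71-fold higher than the level that 3 counts per EtOH library would give, a bound for counting error only. Krt6a, a type II stress keratin, was also at 0 in every EtOH-treated tumor and had 0, 15, 13 and 7 counts with calcipotriol, at least 2.94-fold higher by the same floor. Krt6b had 5 counts in EtOH replicate 4 and 1 count in calcipotriol replicate 5. Of the 50-base stretches, 57.2% in Krt6a and 50.1% in Krt6b occur in other genes, and reads from such stretches cannot be split with certainty. The counts of both genes were whole in every tumor.

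The suprabasal keratins summed to 5.7 ± 0.755 CPM with EtOH and 35.7 ± 16.4 CPM with calcipotriol, and nearly all of the difference came from Krt76. Krt76, a type II keratin known from the upper layers of oral epithelium such as the palate (chr15:101884351-101892920, minus strand), had 88, 60, 60 and 75 counts under EtOH and 584, 1212, 603 and 495 under calcipotriol. As CPM these were 4.28, 2.92, 2.43 and 3.31 against 23.2, 55.4, 29 and 21. All 4 calcipotriol-treated tumors were far above all 4 EtOH-treated tumors, replicate 1 included, and replicate 5 was the highest. Krt76 rose from 3.23 ± 0.784 to 32.1 ± 15.8 CPM, with a log2 fold change of 3.31 ± 0.34 and an adjusted p of 0.00173 by edgeR, 3.30e-19 by DESeq2 and 0.0108 by limma-voom. By p value it stood at position 12 of the 14458 genes. It was called in every fit that left out a tumor, with log2 fold changes of 2.92 to 3.48, and 2.74% of its 50-base stretches occur in other genes.

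Other suprabasal keratins were low. Krt10, the type I keratin of the spinous layer of the epidermis (chr11:99385254-99389364, minus strand), had 36, 44, 59 and 72 counts under EtOH and 23, 65, 120 and 28 under calcipotriol. The groups overlapped, with a log2 fold change of 0.19 ± 0.58 and an adjusted p of 0.900. Its type II partner Krt1 was at 0 with EtOH and had 7, 4, 3 and 0 counts with calcipotriol. Krt13, the type I keratin of noncornified stratified epithelium, had 7 counts in EtOH replicate 3 and 0 in the other EtOH-treated tumors, against 21, 5, 16 and 15 counts with calcipotriol. Its type II partner Krt4 had 1 count in all 8 tumors together. Krt77 and Krt78 had at most 3 counts in a tumor, and Krt2 and Krt9, keratins of upper epidermis and of palms and soles, were at 0 throughout.

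**Figure D4:**
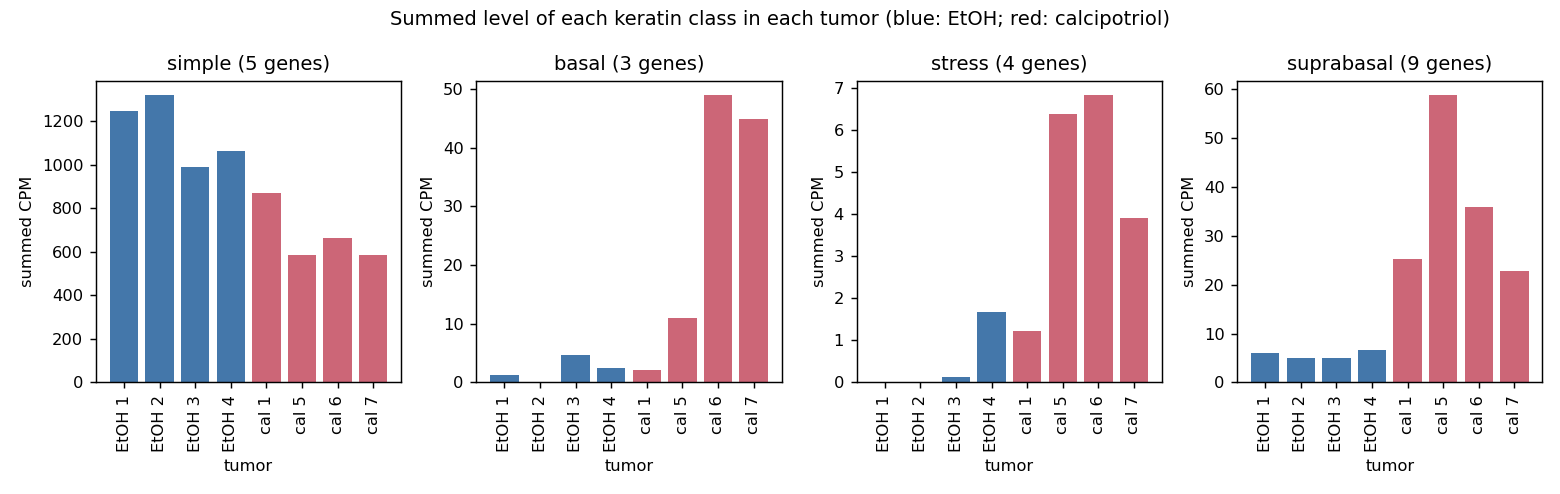
Summed CPM of the simple, basal, stress and suprabasal keratins in each tumor (EtOH blue, calcipotriol red), each class on its own linear axis from 0. The simple class is 992 to 1319 CPM with EtOH and 584 to 870 CPM with calcipotriol, and the suprabasal class is 5.06 to 6.62 CPM against 22.8 to 58.7 CPM.

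Side by side, the class sums differed in direction, in size and in how evenly the tumors shared the difference. Few genes carried each sum: Krt8 and Krt18 for simple, Krt14 for basal, Krt17 for stress and Krt76 for suprabasal keratins. Other members of a class could go the other way. Krt7 of the simple class went from 0.428 to 9.27 CPM, and Krt5 of the basal class had a log2 fold change of -0.27, neither of them called. The difference of calcipotriol minus EtOH was -480.4 CPM for the simple keratins, and the groups did not overlap. Suprabasal keratins were 30 CPM higher, again without overlap. Basal keratins were 24.6 CPM higher on average, but calcipotriol replicate 1, at 2.19 CPM, lay within the EtOH range of 0 to 4.7 CPM. For stress keratins, 4.14 CPM higher, calcipotriol replicate 1 at 1.23 CPM also lay within the EtOH range of 0 to 1.68 CPM. The sums are descriptions of genes chosen with results of these data known and were not tested. All keratins but Krt8 and Krt18 summed to 12.6 to 24.6 CPM with EtOH and 42.8 to 117 CPM with calcipotriol. The number of keratin genes above 0 was 7 to 15 in an EtOH-treated tumor and 18 to 25 in a calcipotriol-treated tumor. How many of all genes were above 0 in each tumor was not counted.

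The order of the tested keratins by mean CPM per kb began with Krt18 and Krt8 in both groups, at 388 and 303 with EtOH and at 204 and 188 with calcipotriol. With EtOH the next were Krt19 (1.78), Krt76 (1.4), Krt10 (1.12), Krt80 (0.771), Krt20 (0.673), Krt5 (0.607), Krt14 (0.39), Krt17 (0.254) and Krt7 (0.0608). With calcipotriol Krt14 (14.4) and Krt76 (13.9) followed the simple pair, then Krt19 (2.33), Krt17 (2.28), Krt7 (1.31), Krt10 (1.28), Krt80 (0.601), Krt5 (0.507) and Krt20 (0.162). Krt14 thus moved from position 9 to position 3, and Krt76 stayed at position 4. Under calcipotriol these 2 neighbors differed by less than the SD of either over the tumors. Exonic length was the union of all annotated exons, 7049 bases for Krt7 and 6393 for Krt80. For the other tested keratins it was 1437 (Krt18) to 2312 (Krt76) bases, so the places of Krt7 and Krt80 depend on the length used.

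**Figure D5:**
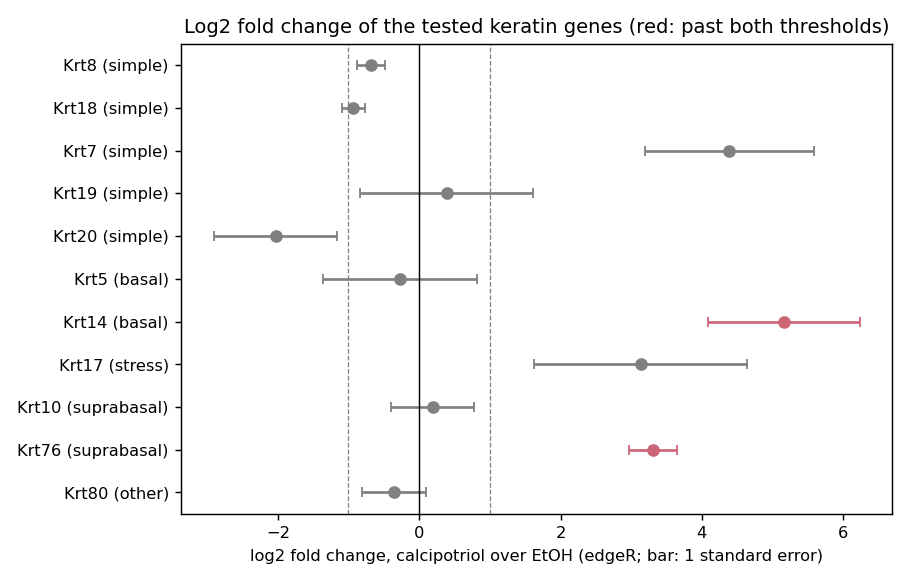
Log2 fold change of calcipotriol over EtOH for the 11 tested keratins, with bars of 1 standard error from edgeR, red for the 2 genes past both thresholds and dashed lines at a log2 fold change of 1 in each direction. Krt76 (3.31) has a short bar, while Krt14 (5.17), Krt7 (4.39) and Krt17 (3.13) have bars of more than 1 on either side.

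Groups without overlap were found for Krt7, Krt14 and Krt76 on the higher side and for Krt8 and Krt18 on the lower side, 3 and 2 of 11, where 6.32% and 6.16% of all tested genes were of these kinds. The median log2 fold change was 0.19 over the tested keratins and 0.02 over all tested genes. By adjusted p alone 3 of the 11 passed, with 2.74% of all tested genes. At an unadjusted p under 0.05 in edgeR there were 6 keratins, of which 3 were lower (Krt8, Krt18 and Krt20). By edgeR p value Krt20 (0.0413) stood at position 2388 of the 14458 genes and Krt17 (0.0622) at position 2988. At least 2388 genes were therefore under that level, and the exact share was not counted, here or for the lists below.

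Krt80, a type II keratin found in many epithelia near the cell margin (chr15:101347444-101370162, minus strand), was the 1 tested gene outside the 4 classes. It averaged 4.93 ± 0.84 CPM with EtOH and 3.84 ± 2.75 CPM with calcipotriol, with a log2 fold change of -0.36 ± 0.45 and an adjusted p of 0.729. Calcipotriol replicate 1, with 199 counts, was above every EtOH-treated tumor, and the other 3 were below every one. Without calcipotriol replicate 1 the log2 fold change was -0.98.

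The 42 keratins left out of the test reached at most 31 counts in any tumor. Of the 19 above 0, 16 had more counts with calcipotriol and 3 had more with EtOH, and 10 were at 0 in every EtOH-treated tumor. Krt4, Krt12, Krt25, Krt75 and Krt77 had counts in 1 tumor each. The same tally over all untested genes was not made, so it describes these genes only. Those with at least 10 counts in a tumor were Krt12, Krt13, Krt15, Krt16, Krt23, Krt42, Krt6a and Krt79. Krt42, a type I keratin known from the nail bed, reached 17 counts in calcipotriol replicate 7 and Krt23, a type I keratin, 11 counts in calcipotriol replicate 1. Krt79, a type II keratin of the hair canal, was at 0 with EtOH and had 5, 15, 1 and 2 counts with calcipotriol. Krt12, the type I keratin of the cornea, had 10 counts in EtOH replicate 4 and 0 elsewhere, and 42% of its 50-base stretches also occur in another gene. Of the 23 keratins of hair and its root sheath, 19 were at 0 in all tumors, and the other 4 (Krt25, Krt36, Krt75 and Krt83) had at most 9 counts in a tumor.

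Genes that work with keratins gave few calls. Of 13 tested linker and attachment genes, which tie keratin filaments to desmosomes and hemidesmosomes, 1 rose, and 1.07% of all tested genes did. It was Ppl, which encodes the filament linker periplakin, from 8.26 ± 1.77 to 30.1 ± 5.38 CPM (log2 fold change 1.87 ± 0.20, adjusted p 0.00235). Groups without overlap were also seen for the desmosomal genes Dsp and Pkp1, higher with calcipotriol, and for the hemidesmosomal integrin gene Itga6, lower at 446 ± 118 against 794 ± 76.8 CPM, where 6.32% and 6.16% of all tested genes were of these kinds. All 3 missed the adjusted p, at 0.0511, 0.0618 and 0.0527 in that order, and Pkp1 had 1340 counts in calcipotriol replicate 1 against 76 to 143 in the other 3.

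Of 16 genes for factors that act on epithelial keratin genes, 9 were tested and 1 rose, where 1.07% of all tested genes did. It was Trp63, the p63 factor of basal epithelial cells, with 24, 24, 15 and 6 counts under EtOH and 88, 165, 88 and 91 under calcipotriol (log2 fold change 2.57 ± 0.53, adjusted p 0.0333). The call was lost with limma-voom (adjusted p 0.0510) and in 6 of the 8 fits that left out a tumor (adjusted p 0.0591 to 0.107), and it held without EtOH replicate 4 and without calcipotriol replicate 1. Calcipotriol replicate 1 was thus as high in Trp63 as replicates 6 and 7, which was not so for Krt14. Vdr, the vitamin D receptor gene, had a log2 fold change of 0.73 with an adjusted p of 0.171.

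Of 28 genes of cornification, the making of the outer dead layer of skin, 7 were tested. By edgeR 0 were called (2.02% of all tested genes), by limma-voom 0 (1.9%) and by DESeq2 1 (4.47%), and 3 had an unadjusted p under 0.05 in edgeR. In every tumor 13 of the 28 were at 0, among them Flg, Casp14 and Dsg1a. Their sum was 14.7 to 21 CPM with EtOH and 15.1 to 29.3 CPM with calcipotriol, and Lor and Sprr1a had the highest means over all tumors. The sum joined genes of opposite direction, as 5 of the 7 tested had a positive log2 fold change and 2 a negative one. Lor went from 9.35 ± 1.88 to 4.64 ± 3.23 CPM (adjusted p 0.246 by edgeR). Sbsn went from 0.746 ± 0.458 to 4.28 ± 2.73 CPM (adjusted p 0.0815 by edgeR).

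The marker lists of cell types did not share a direction. Of 8 keratinocyte markers, 3 were tested and 2 rose by edgeR (Perp, a desmosome-associated p53 and p63 target, and Trp63), where 1.07% of all tested genes did, and limma-voom kept Perp (adjusted p 0.0416) but not Trp63. The Perp call was also lost in 4 of the 8 fits that left out a tumor, without EtOH replicate 2 or calcipotriol replicate 5, 6 or 7 (adjusted p 0.0515 to 0.0596). The summed level of the list was 4.1 to 9.73 CPM with EtOH and 23.3 to 37.6 CPM with calcipotriol, mostly from Perp and Sfn. Dsg1a was at 0 in all tumors, and Dsc3 and Krtdap had at most 4 counts in a tumor. Of 9 general epithelial markers, 5 were tested and 1 rose (Cldn3, a tight junction gene, log2 fold change 3.93 ± 0.52, adjusted p 0.00654), and the sum was 5.79 to 23.5 CPM against 17.5 to 52.4 CPM. Of 9 hair follicle markers, 2 were tested, 0 were called or had an unadjusted p under 0.05, and 5 were at 0, with a sum of 1.66 to 4.5 CPM against 1.82 to 5.02 CPM. The part of adjoining skin or of other cells in the keratin differences was not tested.

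Markers of luminal mammary cells summed to 22.6 to 40.1 CPM with EtOH and 10.1 to 20.6 CPM with calcipotriol, mostly from Esr1 and Kit. Csn2 and Wap were at 0. Of 4 tested genes 0 were called by edgeR and 2 by DESeq2, which called 4.47% of its tested genes, and 2 had an unadjusted p under 0.05 in edgeR. Prlr (log2 fold change -0.31), Kit (-1.63) and Foxa1 (0.89) overlapped between the groups. Esr1 (-1.07) was lower without overlap, as were 6.16% of all tested genes. Markers of myoepithelium and smooth muscle summed to 67.6 to 131 CPM against 41.7 to 58.2 CPM, with 1 of 6 called lower. Of all tested genes 0.948% were called lower, the share to set beside this count and the next ones. The sums were also lower for macrophages (1712 to 2092 against 784 to 1503 CPM, 2 of 6 called lower), endothelium (121 to 282 against 47.6 to 99 CPM, 3 of 6 called lower), adipocytes (28.4 to 34.8 against 12.8 to 20.6 CPM, 1 of 3 called lower, nearly all of the sum being Fabp4, a gene that endothelium and macrophages also express) and red cells (3457 to 5836 against 434 to 820 CPM, 5 of 6 called lower). They overlapped for fibroblasts (1206 to 2471 against 1784 to 3429 CPM), T cells (1.19 to 2.04 against 1.44 to 11.2 CPM, the highest being replicate 1) and skeletal muscle (0.974 to 36.2 against 1.14 to 6.49 CPM), with 0 genes called by edgeR, DESeq2 or limma-voom in these lists, and 1, 0 and 1 at an unadjusted p under 0.05 in edgeR. How these differences in makeup bear on the level of any keratin was not tested.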

How the data were processed

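RNA was isolated from 8 mouse mammary tumors, 4 per group, described by the study as biological replicates. The authors deposited expected counts per gene, estimated values without scaling between tumors. The submitters' processing notes name STAR 2.5.3, RSEM 1.3.1 and DESeq2 1.24.0 with GRCm38, and the gene annotation is not given in the sources used here. The labels name a NovaSeq sequencer and the paper a HiSeq. The library kit named does not mark strand, so reads of overlapping genes on opposite strands cannot be separated.

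Expected counts were rounded to whole numbers (4.2% to 6.22% of a tumor's values were not whole). Of 55414 identifiers, 52081 had a symbol in GENCODE M21 (GRCm38), which also gave types, positions and exonic lengths. Quasi-likelihood models were fitted to 14458 genes with edgeR 4.0.16 in R 4.3.3 (filterByExpr, TMM, glmQLFit, glmQLFTest), and calls needed a log2 fold change of at least 1 in size and an adjusted p (Benjamini-Hochberg) under 0.05. Standard errors were taken from the fold change and its F statistic. CPM used TMM library sizes. At these depths 3 counts are 0.119 to 0.146 CPM, which was the floor for lower bounds. Alternatives were DESeq2 1.42.0, limma-voom (limma 3.58.1), DESeq2 size factors, normalization without keratin and cornification genes, no filter, at least 10 counts in every tumor, adjusted p alone, glmTreat and each tumor left out. For called genes that are not keratins, DESeq2, limma-voom and the left-out tumors were added after the data were seen. The keratins, their classes and the other gene lists were chosen with earlier results of these data known. Every tested keratin is named, untested ones where a tumor had at least 10 counts or to complete a class, and genes of other lists where they passed both thresholds, were the most abundant or bear on a keratin value. Shared 50-base stretches were counted between GENCODE transcripts. The scripts were tested on simulated data. No 2 libraries of a group agreed within sampling noise.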

Additional observations from a re-analysis of the deposited data

Results flagged for a closer look

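In the calcipotriol group, replicate 1 had 0 CPM of Krt17 while the other 3 tumors had 3.22 to 5.62 CPM. On the log2 scale, with 0.1 CPM added to each value, this gap was 0.866 of the range of the group. It passed Dixon's test at the 5% level for 4 samples. Because the flagged value is 0, this ratio depends on the amount added, and other amounts were not tried. The Krt17 gap was the 1 such gap among 32 groups of values examined, where chance gives about 1.6.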

How the results depend on the processing

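The numbers of genes called higher and lower (155 and 137) were 247 and 211 with no filter, 324 and 320 with DESeq2, and 13 and 9 with glmTreat, and leaving out a tumor gave 68 to 241 and 41 to 401. They were highest without calcipotriol replicate 1 and differed by over 1.5 times on at least 1 side without each tumor but EtOH replicate 4. The 2 keratins called higher became 1 with at least 10 counts in every tumor, with limma-voom and with glmTreat, and 1 to 3 when a tumor was left out. The 0 called lower became 1 with adjusted p alone, and 0 to 1 when a tumor was left out. Log2 fold changes turned over for Krt10 (-0.25 with limma-voom, -0.49 to 0.48 when a tumor was left out, the lowest without calcipotriol replicate 6), Krt19 (-0.024 to 1.09, below 0 without EtOH replicate 1 or 2) and Krt5 (0.34 with limma-voom, -0.80 to 0.39 when a tumor was left out, above 0 without EtOH replicate 3 or calcipotriol replicate 1), and their causes were not tested. Of the other fold changes of single keratins, 129 kept direction and call, 4 gained a call and 8 lost one, all 8 for Krt14. Class sums moved by less than the spread between tumors. No paired analysis was made, since neither the paper nor the labels used here pair tumors across the groups. At this depth a keratin under about 3 counts cannot be told from 0.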
